A study of Mus musculus with 2 samples.

Results

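The genes described here carry out classical MHC class I antigen presentation, and they were followed in CD11b+ cells taken from subcutaneous pancreatic tumours of mice. The set holds 10 of the 49585 gene rows in the deposited count table. It was chosen by function: 3 class I chain genes (H2-K1, H2-D1, B2m), 3 peptide loading genes (Tap1, Tap2, Tapbp), 3 immunoproteasome subunits (Psmb8, Psmb9, Psmb10) and the transactivator Nlrc5. All 10 were found, each in 1 row, and all 10 passed the minimum of 50 reads over both libraries.

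The knockout library (labelled Test NRP2 KO) came from NRP2f/fCSF1R-iCRE mice on a BL6 background that were injected with tamoxifen every day. The control library came from mice of the same genotype and background, for which the labels name no injection. The drug and the deletion therefore cannot be told apart between the groups. Both libraries share the floxed Nrp2 alleles and the Cre. The Cre is driven by Csf1r, a gene of monocytes and macrophages, so CD11b+ cells in which Csf1r is not active are not targeted. In each group mouse pancreatic cancer cells, whose line is not named, had been placed under the skin of the flank, and CD11b+ cells were pulled out with magnetic beads after 15 days. RNA of 3 animals was pooled into 1 library per group, and the labels give no age or sex.

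Each group is a single pooled library. Without replicates, the spread between animals is unknown, and the differences were given no p-value. Each ratio is given with a 95% interval that covers counting error only. The libraries held 68554172 reads for the knockout and 64153676 for the control. Genes seen in 1 library only had a median of 24 reads in the knockout library and 47 in the control library, and each interval counts that many reads as a single fragment. This division decides many of the statements below that an interval included 1, since the intervals on undivided reads are narrower. Nrp2, the targeted gene, was at 15.2 CPM (reads scaled to a common, normalised library size) in the knockout library, against 148 CPM in the control library, 9.72-fold lower (6.95 to 13.9). Itgam, which encodes CD11b, was at 422 CPM in the knockout library and 294 CPM in the control library.

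In nearly every nucleated cell, cytosolic proteins are cut by the proteasome, the peptides are pumped into the endoplasmic reticulum by the Tap1-Tap2 transporter, and tapasin (Tapbp) holds empty class I molecules at the transporter until a peptide binds. The class I heavy chain, here H2-K1 or H2-D1, leaves for the cell surface only together with its light chain B2m, and CD8 T cells read the peptide there. Interferon gamma exchanges the catalytic subunits of the proteasome for Psmb8, Psmb9 and Psmb10, which favour peptides that suit class I. Nlrc5 is a nuclear regulator that is recruited to the promoters of class I pathway genes and is related to Ciita, which does the same for class II.

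The promoters of the chain genes are shown first because they carry the short elements through which interferon, NF-kB and Nlrc5 are known to act. RefSeq (GRCm38.p6) holds a promoter for 8 of the 10 genes, all except Tap2 and Nlrc5, and the 250 bases before each start were searched on both strands. Capitals mark matches to GGNNNTCCC (NF-kB core), to GAAANNGAA or GAANNGAAA (the overlapping left and right parts of the interferon-stimulated response element), to TGACGC (X2 box) and to CCAAT (Y box). Each is written 5′ to 3′ on the strand of the gene, so a match on the other strand appears as its complement, such as ATTGG for the Y box. The H2-K1 stretch is chr17:34000348-34000527 on the minus strand, the B2m stretch chr2:122147507-122147686 on the plus strand, and the H2-D1 stretches are chr17:35262924-35262952 and chr17:35262993-35263022 on the plus strand.
H2-K1: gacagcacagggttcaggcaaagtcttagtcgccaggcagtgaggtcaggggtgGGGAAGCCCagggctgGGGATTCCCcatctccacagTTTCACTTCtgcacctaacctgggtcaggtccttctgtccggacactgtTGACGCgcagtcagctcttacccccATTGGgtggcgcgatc
H2-D1, NF-kB to interferon element: GGGATTCCCcatctcctcagTTTCACTTC
H2-D1, X2 box to Y box: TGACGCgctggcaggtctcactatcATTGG
B2m: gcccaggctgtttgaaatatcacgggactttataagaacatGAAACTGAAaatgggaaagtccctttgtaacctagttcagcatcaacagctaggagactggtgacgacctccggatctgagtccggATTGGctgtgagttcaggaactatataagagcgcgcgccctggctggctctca
The heavy chain genes H2-K1 and H2-D1 have the same order of elements: NF-kB core, interferon element, X2 box, Y box. These 2 genes alone among the 8 matched the X2 letters, the NF-kB core and the right part of the interferon element, while B2m alone matched the left part. Over 32841 RefSeq promoter windows of the same length, the NF-kB core occurred in 15.8%, GAAANNGAA in 7.13%, GAANNGAAA in 6.31%, the X2 letters in 6.12% and the Y box in 33.9%. A Y box was found in 6 of the 8 promoters, all except those of Psmb8 and Psmb10.

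Psmb9 and Tap1 point away from each other, and their RefSeq starts lie 225 bases apart, so they share the stretch between them. By the GENCODE coordinates given below, Psmb9 starts further upstream and overlaps Tap1, so this stretch lies within the Psmb9 span. The H2-D1 stretches above likewise lie within the GENCODE span of H2-D1. The bases at chr17:34187331-34187360, on the plus strand, hold the Y box that falls in the window of each gene. They are shown because Psmb9 and Tap1 were both lower in the knockout library.
Psmb9-Tap1: tttCCAATcagcggctgcgcgcggtgcagg
For Psmb8 only TTCNNNGAA (the GAS element of interferon gamma signalling) matched, which 7.02% of all windows hold, and for Psmb10 none of the motifs searched matched. These matches describe letters in a window and do not show binding.

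The loading and immunoproteasome genes of the set were lower in the knockout library, while the presenting chains were near the level of the control library. Summed over their 3 genes, the class I chains were at 11643 CPM in the knockout library and 11405 CPM in the control library. The loading genes summed to 819 CPM in the knockout library and 1189 CPM in the control library, 1.45-fold lower. The immunoproteasome genes summed to 506 CPM in the knockout library and 806 CPM in the control library, 1.59-fold lower. In bulk RNA such a difference can come from fewer cells of a type or from less RNA of the gene per cell, and these cannot be told apart.

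A difference of at least 2-fold was found for 0 of the 10 genes in either direction. Of the 14420 genes with at least 50 reads, 14.7% were lower and 10.8% higher in the knockout library by that much. All 10 also had at least 10000 reads, and the log2 ratios of such well-read genes spread less (robust SD 0.40, against 0.71 over the 14420 genes). A fold of 1.5 was therefore looked at among them, a choice made with the values in view. By that measure 3 of the 10 genes (Tap2, Psmb8, Psmb9) were lower and 0 higher, against 7.46% lower and 13.2% higher among 2548 genes with as many reads. The interval lay below 1 for 8 of the 10 genes and above 1 for 1, where 24.3% and 30.8% of the 2548 genes lay below and above 1. The median log2 ratio, knockout over control, was -0.40 for the 10 genes, -0.07 for the chains, -0.56 for the loading genes and -0.76 for the immunoproteasome. Over the 2548 genes it was 0.04.

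**Figure D1:**
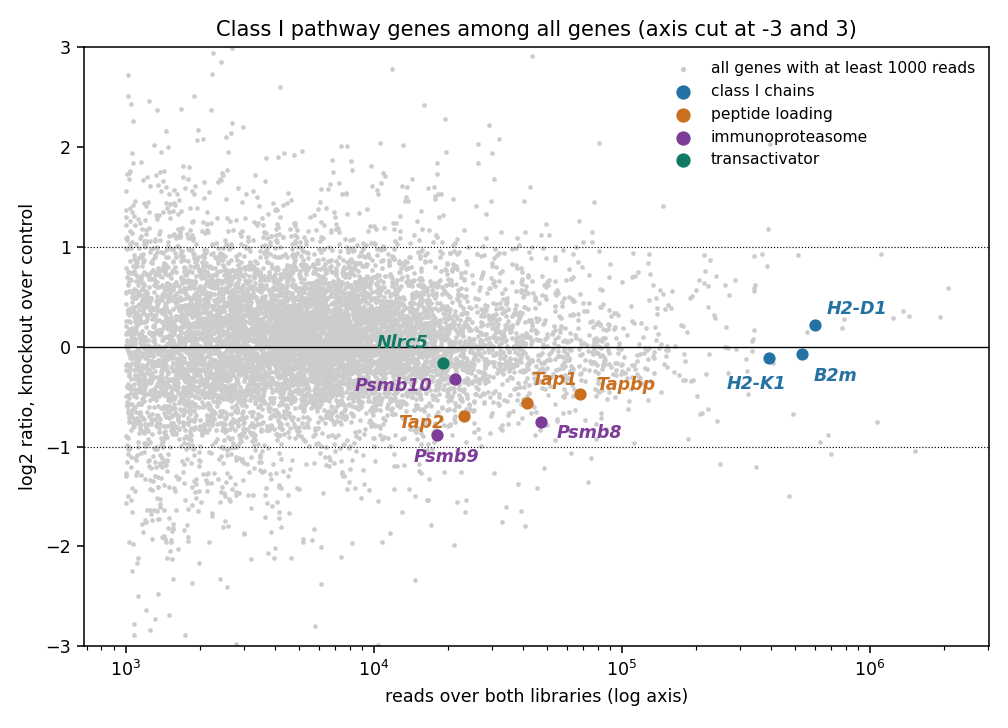
The log2 ratio of knockout over control (vertical axis) is plotted against the reads over both libraries (horizontal, log axis) for every gene with at least 1000 reads, with the 10 class I pathway genes coloured by role and 2-fold marked by dotted lines. The loading and immunoproteasome genes lie between -0.33 and -0.88, and the 3 chain genes, among the most counted genes, lie between -0.11 and 0.22.

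The chain genes were counted deeply. H2-K1 (ENSMUSG00000061232, 17:33996017-34000347 in GRCm38, minus strand), the heavy chain of the K locus, had 191183 reads in the knockout library and 202821 in the control library. That is 2854 CPM in the knockout library and 3089 CPM in the control library, 1.08-fold lower (1.04 to 1.12). H2-D1 (ENSMUSG00000073411, 17:35262730-35267499, plus strand), the heavy chain of the D locus, had 326237 reads in the knockout library and 275206 in the control library. It was at 4870 CPM in the knockout library and 4192 CPM in the control library, 1.16-fold higher (1.13 to 1.2), and it alone of the 10 genes was higher. B2m (ENSMUSG00000060802, 2:122147686-122153083, plus strand), the light chain they share, had 262522 reads in the knockout library and 270758 in the control library. It was at 3919 CPM in the knockout library and 4124 CPM in the control library, 1.05-fold lower (1.02 to 1.09). These intervals exclude 1 because the genes hold so many reads, and they contain no difference between animals.

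The heavy chains moved apart within the libraries, a measure that no scaling touches. H2-D1 had 1.71 reads for each H2-K1 read in the knockout library and 1.36 in the control library, a ratio 1.26 times as large in the knockout library (1.2 to 1.32). Per kilobase of the principal transcript the same ratio was 1.31 in the knockout library and 1.05 in the control library. B2m against both heavy chains together was 0.507 in the knockout library and 0.566 in the control library, 0.896 times as large (0.861 to 0.932). Of the 50-base words of H2-D1 exons 12.8%, and of H2-K1 exons 9.63%, occur in other genes as well, among them H2-Q7 and each other, so the counting of some of their reads is uncertain.

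Per length, B2m was the highest of the 10 genes in each library, with 4557 RPKM (CPM per kilobase) in the knockout library and 4795 in the control library. H2-D1 was at 2317 in the knockout library and 1994 in the control library on this scale, and H2-K1 at 1763 in the knockout library and 1908 in the control library. The 6 loading and immunoproteasome genes lay far below the chains, between 38.8 (Tap2) and 164 (Psmb8) in the knockout library and between 62.8 (Tap2) and 277 (Psmb8) in the control library. Nlrc5 was the lowest, at 17.8 in the knockout library and 20 in the control library.

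**Figure D2:**
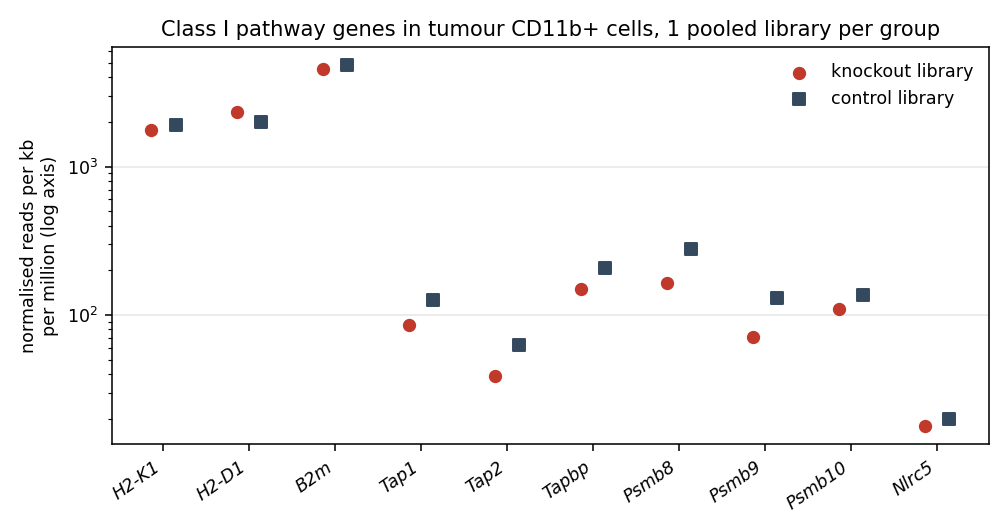
Levels of the 10 genes in RPKM (normalised CPM per kilobase of the principal transcript, log axis) are shown as red circles for the knockout library and dark squares for the control library, 1 pooled library each, with no error bars because there are no replicates. The knockout circle lies below the control square for every gene but H2-D1, and the gaps are widest for Psmb9, Psmb8, Tap2 and Tap1.

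All 3 loading genes were lower in the knockout library. Tap1 (ENSMUSG00000037321, 17:34187553-34197225, plus strand), the first subunit of the peptide transporter, had 16975 reads in the knockout library and 24573 in the control library. It was at 253 CPM in the knockout library and 374 CPM in the control library, 1.48-fold lower (1.32 to 1.66). Tap2 (ENSMUSG00000024339, 17:34203527-34216321, plus strand), the second subunit, had 8956 reads in the knockout library and 14199 in the control library. It was at 134 CPM in the knockout library and 216 CPM in the control library, 1.62-fold lower (1.39 to 1.89). Against each other the subunits differed little: Tap2 had 0.528 reads for each Tap1 read in the knockout library and 0.578 in the control library, 0.913 times as many, with an interval that included 1 on fragments (0.753 to 1.11) and excluded it on undivided reads (0.883 to 0.944).

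Tapbp (ENSMUSG00000024308, 17:33915899-33929292, plus strand), the tapasin gene, had 28910 reads in the knockout library and 39279 in the control library. It was at 432 CPM in the knockout library and 598 CPM in the control library, 1.39-fold lower (1.27 to 1.52). Tapbp shares 3422 bases of its span with Zbtb22 on the same strand, which held 1945 reads in the knockout library and 2518 in the control library. The loading genes had 0.0703 reads for each read of the 3 chain genes in the knockout library and 0.104 in the control library, 0.675 times as large (0.631 to 0.721).

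Among 9 further genes that trim, fold or load class I peptides, the interval lay below 1 for 4 and above 1 for 2, where 11.1% and 12.6% of the 14420 genes lay below and above 1. As 6 of the 9 had at least 10000 reads, the shares of 24.3% and 30.8% among such genes are the closer comparison. Their median log2 ratio was -0.16, against -0.01 over the 14420 genes. Of the chaperones of the loading complex, 3 were lower in the knockout library. Calreticulin (Calr) was at 796 CPM in the knockout library and 989 CPM in the control library, 1.24-fold lower (1.16 to 1.33), and Pdia3, the disulfide isomerase bound to tapasin, was at 631 CPM in the knockout library and 764 CPM in the control library, 1.21-fold lower (1.12 to 1.31). Canx, the calnexin gene, was at 405 CPM in the knockout library and 459 CPM in the control library, 1.13-fold lower (1.03 to 1.25). The tapasin-related editor Tapbpl was at 38.9 CPM in the knockout library and 65.2 CPM in the control library, 1.68-fold lower (1.25 to 2.24). Lnpep, an aminopeptidase that trims peptides in endosomes for cross-presentation, was at 78.5 CPM in the knockout library and 37.0 CPM in the control library, 2.12-fold higher (1.56 to 2.93). The other gene with an interval above 1, Tpp2, was at 99.5 CPM in the knockout library and 76.1 CPM in the control library, 1.31-fold higher (1.04 to 1.65).

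The 3 immunoproteasome subunits were lower as well, Psmb9 and Psmb8 most of all 10 genes. Psmb8 (LMP7, ENSMUSG00000024338, 17:34197721-34201454, plus strand), which replaces Psmb5, had 17864 reads in the knockout library and 29574 in the control library. It was at 267 CPM in the knockout library and 450 CPM in the control library, 1.69-fold lower (1.52 to 1.88). Psmb9 (LMP2, ENSMUSG00000096727, 17:34181987-34187764, minus strand), which replaces Psmb6, had 6425 reads in the knockout library and 11598 in the control library. It was at 95.9 CPM in the knockout library and 177 CPM in the control library, 1.84-fold lower (1.54 to 2.2). Of the 2548 well-read genes, 3.06% had a log2 ratio at or below that of Psmb9 and 4.47% at or below that of Psmb8.

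Psmb10 (MECL-1, ENSMUSG00000031897, 8:105935735-105938444, minus strand), which replaces Psmb7 and lies outside the MHC, had 9583 reads in the knockout library and 11776 in the control library. It was at 143 CPM in the knockout library and 179 CPM in the control library, 1.25-fold lower (1.07 to 1.47). Of the 2548 well-read genes 17.5% had a log2 ratio at or below it.

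**Figure D3:**
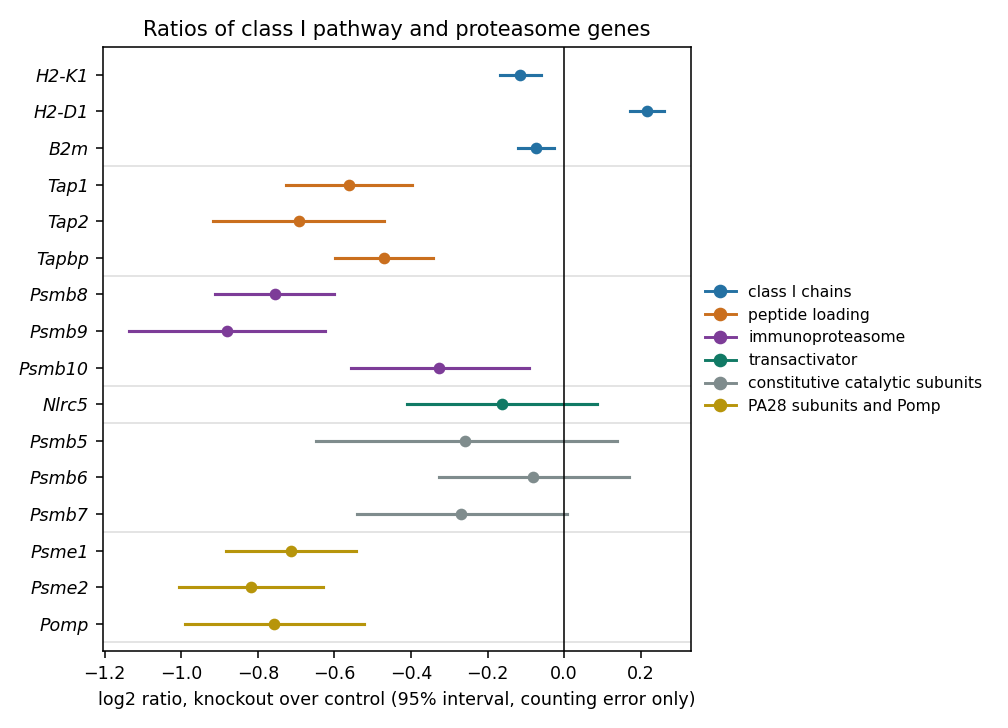
The log2 ratio of knockout over control is drawn with its 95% interval (counting error only) for the 10 class I pathway genes, the 3 constitutive catalytic subunits, and the PA28 subunits and Pomp, coloured by role. The intervals of the loading and immunoproteasome genes, Psme1, Psme2 and Pomp lie wholly below 0, and those of Nlrc5, Psmb5, Psmb6 and Psmb7 include 0.

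Each inducible subunit was set against the constitutive subunit whose place it takes, within each library. Psmb5, Psmb6 and Psmb7 carry the chymotrypsin-like, caspase-like and trypsin-like activity of the standard proteasome, and the intervals of their own ratios all included 1. On undivided reads they excluded 1, at 1.14 to 1.25-fold lower for Psmb5, 1.03 to 1.09-fold for Psmb6 and 1.17 to 1.24-fold for Psmb7. They summed to 302 CPM in the knockout library and 342 CPM in the control library. Per kilobase, Psmb8 to Psmb5 was 2.77 in the knockout library and 3.91 in the control library, 0.708 times as large (0.529 to 0.953). Psmb9 to Psmb6 was 0.399 in the knockout library and 0.695 in the control library, 0.574 times as large (0.447 to 0.734). Psmb10 to Psmb7 was 1.19 in the knockout library and 1.24 in the control library, 0.961 times as large, with an interval that included 1 (0.745 to 1.23). The inducible subunit was thus less abundant relative to its partner in the knockout library for the Psmb8 and Psmb9 positions, while at the Psmb10 position no difference was detectable at this depth, on fragments or on undivided reads. Even in the knockout library Psmb8 and Psmb10 exceeded their constitutive partners per length.

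**Figure D4:**
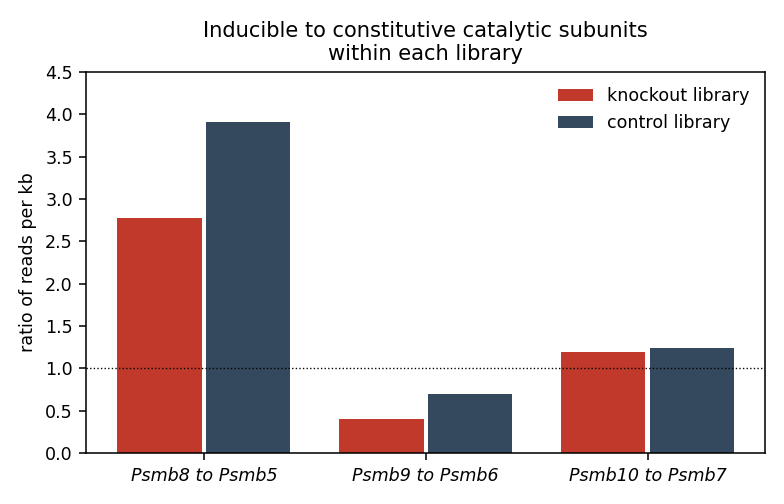
Bars give the ratio of reads per kilobase of each inducible catalytic subunit to the constitutive subunit it replaces, in the knockout library (red) and the control library (dark), 1 library each, with equality dotted. The knockout bar is lower for Psmb8 to Psmb5 (2.77 against 3.91) and Psmb9 to Psmb6 (0.399 against 0.695), and the bars for Psmb10 to Psmb7 are 1.19 and 1.24.

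The 11 other subunits of the 20S core, which are common to both forms, summed to 1465 CPM in the knockout library and 1683 CPM in the control library, with a median log2 ratio of -0.21. The interval lay below 1 for 4 of them and above 1 for 0, where 24.3% and 30.8% of genes with as many reads lay below and above 1. Of the most counted, Psmb1 was 1.12-fold lower (0.956 to 1.31), Psmb4 1.02-fold lower (0.866 to 1.2) and Psma2 1.15-fold lower (0.98 to 1.35). Psmb2, with the largest difference of the list, was 1.33-fold lower (1.1 to 1.6). Against this core, Psmb8 was 0.68 times as abundant in the knockout library as in the control library (0.603 to 0.766), Psmb9 0.624 times (0.519 to 0.75) and Psmb10 0.916 times (0.772 to 1.08, or 0.89 to 0.942 on undivided reads).

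The PA28 cap and the assembly chaperone Pomp were lower by about as much as Psmb8 and Psmb9. Psme1 and Psme2 encode the PA28 cap, which opens the core for short peptides, and Pomp is the chaperone that assembles it. Psme1 was at 228 CPM in the knockout library and 373 CPM in the control library, 1.64-fold lower (1.46 to 1.84). Psme2 was at 177 CPM in the knockout library and 312 CPM in the control library, 1.76-fold lower (1.55 to 2.01). Pomp was at 119 CPM in the knockout library and 202 CPM in the control library, 1.69-fold lower (1.44 to 1.99). Against the 20S core, the PA28 pair was 0.678 times as abundant in the knockout library as in the control library (0.612 to 0.75). Of the 9 activator and assembly genes, these 3 had an interval below 1 and 0 had one above 1. Among all genes 11.1% lay below 1 and 12.6% above. Among genes with at least 10000 reads, which 5 of the 9 had, the shares were 24.3% and 30.8%. By log2 ratio 5 of the 9 were lower and 4 higher. The other 6 had intervals that included 1 on fragments. Psme3, the PA28 gene of the nucleus, was 1.15-fold higher (0.918 to 1.45, or 1.11 to 1.19 on undivided reads). Psme4 was 1.24-fold higher (0.999 to 1.54, or 1.19 to 1.28 on undivided reads).

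The 17 genes of the 19S cap, which feeds ubiquitin-tagged proteins into the core, had a median log2 ratio of 0.05 (-0.01 when scaled by library totals). The interval lay below 1 for 2 of them and above 1 for 4, no more than the 24.3% and 30.8% of genes with at least 10000 reads, which 14 of the 17 had. Psmc1, an ATPase subunit, was at 135 CPM in the knockout library and 94.2 CPM in the control library, 1.44-fold higher (1.18 to 1.77), and Psmd8 was at 296 CPM in the knockout library and 228 CPM in the control library, 1.3-fold higher (1.14 to 1.49). Psmd2 was 1.06-fold higher (0.93 to 1.22) and Psmc3 1.21-fold lower (1.01 to 1.44).

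Nlrc5 (ENSMUSG00000074151, 8:94434356-94527272, plus strand) had 9054 reads in the knockout library and 9939 in the control library. It was at 135 CPM in the knockout library and 151 CPM in the control library, 1.12-fold lower, and the interval included 1 (0.942 to 1.33). Counted on undivided reads the interval excluded 1 (1.09 to 1.15), so whether it includes 1 depends on how many reads are counted as a fragment. Its class II relative Ciita was at 69.0 CPM in the knockout library and 165 CPM in the control library, 2.4-fold lower (1.97 to 2.92). Nlrc5 had 1.96 reads for each Ciita read in the knockout library and 0.915 in the control library, 2.14 times as many (1.64 to 2.78).

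Ordered by log2 ratio from the lowest, the 10 genes ran Psmb9, Psmb8, Tap2, Tap1, Tapbp, Psmb10, Nlrc5, H2-K1, B2m, H2-D1. Of the 9 pairs of neighbours in this order, 8 had a ratio between libraries whose interval included 1. The exception was the step from B2m to H2-D1 (0.818, interval 0.782 to 0.855). On undivided reads the intervals of all 9 pairs excluded 1, so whether neighbours differ rests on how many reads are counted as a fragment. Between the roles, loading and immunoproteasome genes together had 0.114 reads for each chain read in the knockout library and 0.175 in the control library, 0.65 times as many (0.617 to 0.686). Immunoproteasome against loading genes was 0.618 in the knockout library and 0.678 in the control library, 0.91 times as large, with an interval that included 1 on fragments (0.822 to 1.01) and excluded it on undivided reads (0.895 to 0.927).

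Of 13 other regulators that act on class I promoters, 1 was lower by at least 2-fold and 0 were higher by as much, and the interval lay below 1 for 3. Neither count stands out from the 14.7% and 10.8% of all genes past 2-fold, or the 11.1% to 24.3% with an interval below 1. Nfkb1, the p50 subunit of NF-kB, was at 134 CPM in the knockout library and 201 CPM in the control library, 1.51-fold lower (1.29 to 1.77). Irf1, which binds the interferon-stimulated element, was at 353 CPM in the knockout library and 369 CPM in the control library, with an interval that included 1 on fragments (0.937 to 1.16) and excluded it on undivided reads (1.03 to 1.06).

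Genes of the interferon gamma pathway were not lower throughout: of 12, 2 were lower by at least 2-fold and 0 higher by as much, and the interval lay below 1 for 5 and above 1 for 1. The 2-fold count is near the 14.7% of all genes that were lower by as much, and 24.3% of genes with at least 10000 reads, or 11.1% of all, had an interval below 1. Their median log2 ratio was -0.20. Cxcl9, a chemokine induced by interferon gamma, was at 472 CPM in the knockout library and 834 CPM in the control library, 1.77-fold lower (1.63 to 1.91). Gbp2, an interferon-induced GTPase, was at 474 CPM in the knockout library and 778 CPM in the control library, 1.64-fold lower (1.51 to 1.78). Ifng itself had 267 reads in the knockout library and 558 in the control library, 2.13-fold lower with an interval that included 1 on fragments (0.861 to 5.32) and excluded it on undivided reads (1.84 to 2.48). The interferon gamma receptor gene Ifngr1 was at 396 CPM in the knockout library and 279 CPM in the control library, 1.42-fold higher (1.26 to 1.6).

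The non-classical class I genes, most of which also need B2m, were mixed. Of 16, 14 had at least 50 reads, and of these 0 were lower and 1 was higher by at least 2-fold, no more than the 14.7% lower and 10.8% higher among all genes. Their median log2 ratio was -0.17. H2-Q4 was at 366 CPM in the knockout library and 358 CPM in the control library, and H2-Q6 at 203 CPM in the knockout library and 228 CPM in the control library, both with intervals that included 1 on fragments. H2-T23, which encodes Qa-1, the ligand of CD94-NKG2 receptors, was at 232 CPM in the knockout library and 337 CPM in the control library, 1.45-fold lower (1.29 to 1.64). Mr1, which presents vitamin metabolites to MAIT cells, was at 44.0 CPM in the knockout library and 16.9 CPM in the control library, 2.61-fold higher (1.67 to 4.24).

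Class II genes had a lower median than each class I role. All 9 had intervals below 1, as did 11.1% of all genes and 24.3% of genes with at least 10000 reads, which 7 of the 9 had. Of the 9, 5 were at least 2-fold lower (14.7% of all genes), and the median log2 ratio was -1.04. Summed, they were at 19504 CPM in the knockout library and 39401 CPM in the control library. The class I chains had 0.618 reads for each read of H2-Aa, H2-Ab1, H2-Eb1 and Cd74 in the knockout library and 0.299 in the control library, 2.07 times as many (2.02 to 2.11). For the loading and immunoproteasome genes the corresponding ratio was 0.0703 in the knockout library and 0.0523 in the control library, 1.34 times as large (1.28 to 1.41).

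Of the 10 genes 7 lie on chromosome 17, in or beside the MHC, and Psmb9, Tap1, Psmb8 and Tap2 sit side by side among the class II genes. Within 100 kb of the start of Tap1, 12 genes had at least 1000 reads, of which 11 were lower in the knockout library and 1 was higher. Of all 9054 genes with as many reads, 46.7% were lower. The class II genes there had log2 ratios from -2.36 (H2-Ob) to -0.26 (H2-DMb2), and the 4 class I pathway genes from -0.88 (Psmb9) to -0.56 (Tap1). The exception was Brd2, which encodes a bromodomain protein of chromatin, at 390 CPM in the knockout library and 268 CPM in the control library. Tap1 and Psmb9 overlap by 212 bases on opposite strands, and the sources used here do not say whether counting used the strand.

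**Figure D5:**
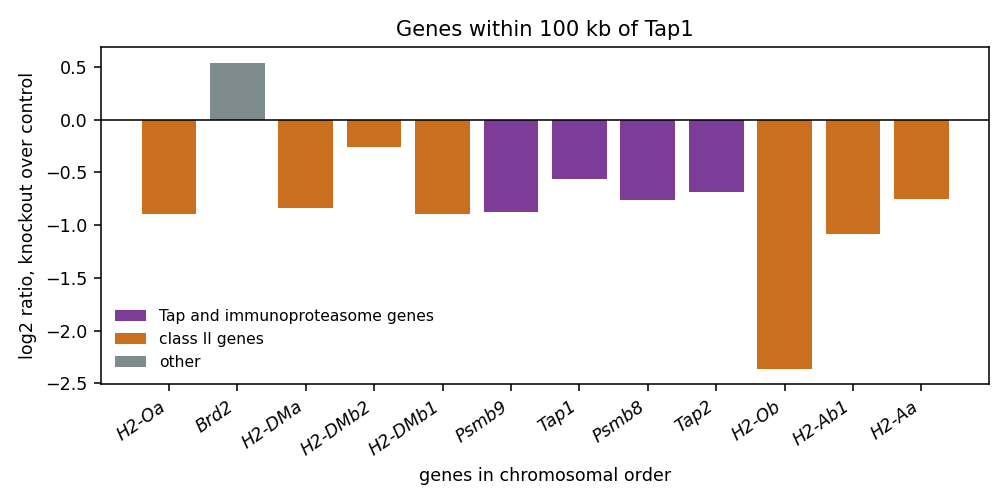
Bars give the log2 ratio of knockout over control for the 12 genes with at least 1000 reads whose midpoint lies within 100 kb of the start of Tap1, in chromosomal order and coloured by kind, with no error bars because each group is 1 library. The 4 Tap and immunoproteasome genes (-0.88 to -0.56) stand between class II genes that are also lower, and Brd2 alone is higher (0.54).

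Markers of other immune cells, which also use this pathway, differed between the libraries in the same direction. Beside the counts of these lists stand the 11.1% of the 14420 genes with an interval below 1 and the 12.6% with an interval above 1. The 14 T cell markers summed to 86.7 CPM in the knockout library and 256 CPM in the control library, and the interval lay below 1 for 11 of them. The 9 NK cell markers summed to 38.9 CPM in the knockout library and 114 CPM in the control library (4 below 1). The 8 B cell markers summed to 21.4 CPM in the knockout library and 202 CPM in the control library (3 below 1), with Pax5 and Blk at 0 in the knockout library. The 10 conventional dendritic cell markers summed to 152 CPM in the knockout library and 425 CPM in the control library (7 below 1), with Xcr1 at 0 in the knockout library.

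The myeloid lists did not share a direction. The 10 macrophage markers summed to 15524 CPM in the knockout library and 14776 CPM in the control library, with intervals below 1 for 5 and above 1 for 4. All 10 had at least 10000 reads, and of such genes 24.3% lay below 1 and 30.8% above. For the lists that follow, 11.1% of all genes lay below 1 and 12.6% above, shares that are larger among genes with more reads. The 6 monocyte markers summed to 453 CPM in the knockout library and 1070 CPM in the control library (4 below 1, 1 above 1). The 8 neutrophil markers summed to 1242 CPM in the knockout library and 984 CPM in the control library (1 below 1, 3 above 1), with Mpo at 0 in both libraries and Ly6g and Camp at 0 in the control library. Outside the blood lineages, 7 epithelial markers summed to 129 CPM in the knockout library and 191 CPM in the control library (2 below 1, Cldn4 at 0 in both), 6 fibroblast markers to 193 CPM in the knockout library and 321 CPM in the control library (3 below 1), and 6 endothelial markers to 21.9 CPM in the knockout library and 86.2 CPM in the control library (4 below 1). The part of these cell types in the class I pathway results was not tested.

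The authors' deposited table gives log2 fold changes for the 10 genes from -0.87 (Psmb9, standard error 0.51, p = 0.0903) to 0.23 (H2-D1, standard error 0.39, p = 0.553). In the authors' deposited table the adjusted p was 1.0 for all 10 genes, and the lowest adjusted p among all its genes was 0.331. Those values come from the same 2 libraries and carry no replicate spread.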

How the data were processed

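The file that the authors deposited holds raw counts, whole reads for every Ensembl gene. The submitters' processing notes name cutadapt, HISAT2, featureCounts and GRCm38. Not given in the sources used here are versions, the annotation release and the strand setting. The kit was TruSeq stranded mRNA, per the labels' protocols. PCR duplicates count as reads, since the labels mention no molecular identifiers. The authors also deposited a comparison table with a signal (counts divided by 1.01 for the knockout and 0.995 for the control library, as the values showed), log2 fold changes with standard errors, a score, and p-values. How that table was computed is not stated.

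Symbols and coordinates came from GENCODE M21 (GRCm38), which matched 49326 of 49585 rows. Per-kilobase levels used the length of the principal transcript. TMM factors were 0.977 for the knockout and 1.02 for the control library (edgeR 4.0.16, R 4.3.3). CPM and log2 ratios used a prior of 0.5 reads and at least 50 reads over both libraries. No test was run. Intervals are exact 95% Clopper-Pearson intervals, and conditional exact intervals for the 22 ratios within libraries and the 9 neighbour pairs, after dividing reads by the number per fragment (24 knockout, 47 control, medians over 2114 and 867 genes with more than 4 reads in 1 library only). On undivided reads, ratios within libraries that held large counts took an approximate interval (Woolf) in place of the exact one. The scripts were tested on simulated data. Alternatives were DESeq2 1.42.0 size factors, upper-quartile factors, library totals, other count minimums and a prior of 5.

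The genes and the lists were chosen with earlier results of these data known. Named were all 10 genes, every gene of lists of at most 5, and otherwise the 3 most counted genes and the 1 with the largest ratio among those with at least 1000 reads. The marker lists were given as sums and counts, without the genes that this rule takes from them. Tapbpl, Tpp2, Ciita, Ifng, Ifngr1, Psme3, Psme4, Brd2, H2-DMb2, the markers at 0 and the motif GAANNGAAA were chosen after their values or the promoters were seen. A gene that the naming rule takes from these lists is not reported here.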

Additional observations from a re-analysis of the deposited data

How the results depend on the processing

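The log2 ratio of each of the 10 genes kept its sign under all scalings, count minimums and priors run. Library totals and upper-quartile factors moved every log2 ratio by -0.07 and -0.06. They put H2-K1 at -0.18 and -0.17, H2-D1 at 0.15 and 0.16 and B2m at -0.14 and -0.13, and brought the genes at least 1.5-fold lower to 4, Tap1 being the addition. Interferon gamma pathway genes at least 2-fold lower numbered 1 in place of 2 with at least 1000 reads, because Ifng has fewer. The class I to class II ratio was 1.98 in place of 2.07 from medians of log2 ratios, and 1.34 with the loading and immunoproteasome genes in the numerator, an alternative added after the data were seen. No paired analysis was possible because each group has 1 library, and for the same reason no replicate could be left out. The intervals of Nlrc5, Psmb5, Psmb6 and Psmb7 include 1 on fragments and exclude it on undivided reads, so the number of reads taken as a fragment decides these calls. Differences between animals are in no interval.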
